A study of Mus musculus with 10 samples.

Results

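The cells described here are labelled Dmp1 Ogn stromal cells of the old mouse cochlea. They were chosen by transcripts of Dmp1, Fst, Ogn, Inmt, Vcam1, Cpxm1 and A2m. A cell was taken where at least 3 of these 7 genes had a unique molecular identifier (UMI, which counts each captured transcript once). It also had to have a UMI of fewer than 3 of the 6 fibroblast genes Ccl11, Scn7a, Lmntd1, Ranbp3l, Aldh1a2 and Cldn11, and of fewer than 3 of the 6 hair cell genes Myo6, Myo7a, Pou4f3, Tmc1, Kncn and Gfi1. This gate found 455 cells, which were 6.26% of the 7272 cochlear cells and came from 17696 cells of both inner ear organs. The levels of the 19 genes named in the gate chose the cells and are therefore given as a description without a test.

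All samples came from CBA/J mice aged 22 months without a transgene, an induced mutation or a treatment, and male and female mice were used. Whole cochleae or whole vestibular organs of 7 to 8 mice were microdissected for each replicate. The authors state that the sensory epithelia were digested with collagenase IV, and cells were captured in droplets. A replicate is thus a pool of animals and not 1 animal. There were 5 cochlear and 5 vestibular replicates. All 1313 barcodes of cochlear replicate 2 recurred in replicate 1, as did 1633 of the 1641 of vestibular replicate 2 in vestibular replicate 1, and the counts of the cochlear pair lay closer together than sampling alone would give (a chi-square of 0.127 per gene, where replicates 1 and 4 gave 35.6). Each such pair was counted as 1 sample, and n was 4 per organ. Young animals were not analysed here, and no change with age was computed.

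A droplet counted as a cell with 200 or more genes, 1000 or more UMIs and under 25% of its UMIs from mitochondrial genes. Cochlear replicates 1, 3, 4 and 5 held 2738036, 26974948, 5349308 and 5452292 UMIs, in all droplets, and 571, 5070, 695 and 936 cells were kept. Vestibular replicates 1, 3, 4 and 5 held 4150642, 24104850, 10318267 and 9482901 UMIs and gave 867, 5438, 2448 and 1671 cells. Replicate 3 thus supplied most cells of either organ. Other pairs of cochlear libraries shared at most 11 barcodes, and no barcode was a Dmp1 Ogn cell in both libraries of a pair. Across both organs, pairs of the libraries used shared at most 41.

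Dmp1 encodes dentin matrix acidic phosphoprotein, a secreted protein rich in acidic residues that binds calcium and is best known from osteocytes, the cells embedded in bone. Ogn encodes osteoglycin, a small leucine-rich proteoglycan that sits on collagen fibrils and was first purified from bone. Fst encodes follistatin, which traps activins and some bone morphogenetic proteins, Inmt a methyltransferase of small amines, Vcam1 an adhesion molecule for white blood cells, Cpxm1 a carboxypeptidase-like secreted protein without known enzyme activity, and A2m a broad protease inhibitor. The cochlea lies inside a bony shell, and connective tissue cells line this shell, carry the sensory organ and fill the lateral wall, where fibrocytes take part in recycling potassium. The authors describe digesting the sensory epithelia, and how many of these connective tissue cells came along into a library was not tested.

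The promoter windows of the 2 genes that name the cells, and of Omd, the neighbour of Ogn, are shown because these genes recur in the results. Each runs from 250 bases before to 50 after the gene start, on the plus strand of mouse build GRCm38.p6 as RefSeq gives it, at chr5:104202367-104202666 for Dmp1 (the second of its 2 listed starts), chr13:49607765-49608064 for Ogn and chr13:49582212-49582511 for Omd. Capitals mark matches to the core of the RUNX motif (TGTGGT, or ACCACA on the other strand) and to the TATA box (TATAAA, or TTTATA on the other strand).
Dmp1: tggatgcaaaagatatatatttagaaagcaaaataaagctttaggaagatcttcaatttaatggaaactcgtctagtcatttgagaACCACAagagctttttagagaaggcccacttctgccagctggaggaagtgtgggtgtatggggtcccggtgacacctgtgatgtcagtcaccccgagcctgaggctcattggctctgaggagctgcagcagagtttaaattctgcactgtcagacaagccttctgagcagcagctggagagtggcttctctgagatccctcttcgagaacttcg
Ogn: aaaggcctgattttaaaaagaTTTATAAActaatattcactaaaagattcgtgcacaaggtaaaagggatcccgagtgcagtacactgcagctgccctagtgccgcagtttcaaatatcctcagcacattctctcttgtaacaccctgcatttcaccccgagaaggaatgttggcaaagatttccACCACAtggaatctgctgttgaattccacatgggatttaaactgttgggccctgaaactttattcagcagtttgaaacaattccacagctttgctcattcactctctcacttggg
Omd: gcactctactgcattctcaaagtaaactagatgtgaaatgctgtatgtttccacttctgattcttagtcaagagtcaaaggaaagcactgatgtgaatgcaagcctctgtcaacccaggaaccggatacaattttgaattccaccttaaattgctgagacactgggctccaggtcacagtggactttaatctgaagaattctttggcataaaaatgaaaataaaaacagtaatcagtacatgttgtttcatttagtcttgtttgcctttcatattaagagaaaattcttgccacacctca
The Dmp1 window held 1 RUNX core, 164 bases before the start, and the Ogn window held 1, 65 bases before it, beside 2 overlapping TATA box matches. The Omd window held neither, and no window held an AP-1 match (TGANTCA). The window of the first listed Dmp1 start held none of these matches. These letters are common, since 16.8% of 32851 RefSeq windows of this length held a RUNX core on either strand, 13.6% a TATA box and 7.81% an AP-1 match. The matches are a description of the letters only.

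Dmp1 Ogn cells were found in each of the 4 cochlear libraries. They numbered 15 in replicate 1, 324 in replicate 3, 45 in replicate 4 and 71 in replicate 5. Their share of the cells was lowest in replicate 1, at 2.63% with an exact (Clopper-Pearson) 95% interval of 1.48 to 4.30%. It was 6.39% (5.73 to 7.10) in replicate 3, 6.47% (4.76 to 8.57) in replicate 4 and 7.59% (5.97 to 9.47) in replicate 5. The intervals cover counting error only. The share in replicate 1 lay under the intervals of the other 3, which overlapped each other. The share of cells in a suspension depends on dissection and dissociation as well as on the tissue, and these cannot be told apart.

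**Figure D1:**
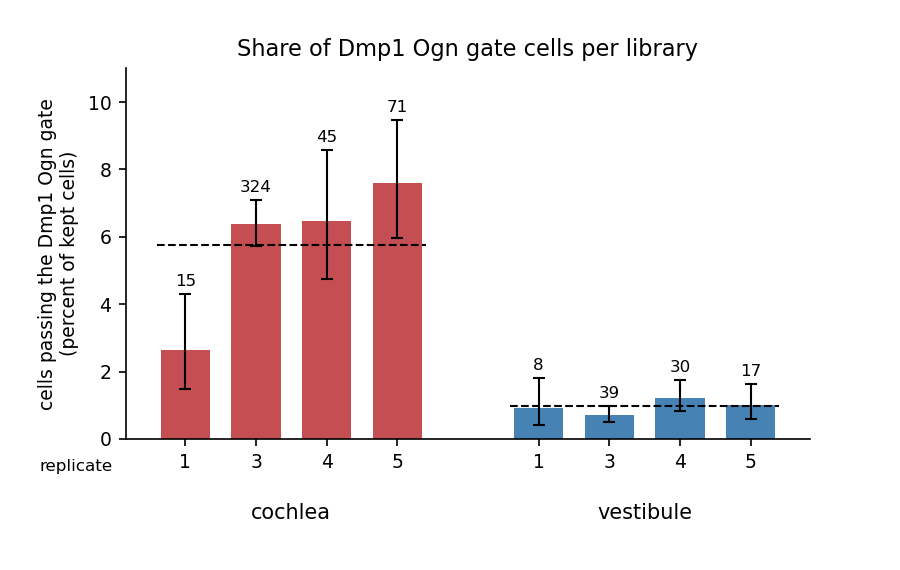
Share of kept cells that pass the Dmp1 Ogn gate (percent, vertical axis) in each library of the cochlea and the vestibule (horizontal axis), with 95% exact binomial intervals, the number of cells above each bar and the mean of each organ as a dashed line. The 4 cochlear shares lie between 2.63% and 7.59%, above the 4 vestibular shares of 0.717% to 1.23%.

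The cells held 2367686 UMIs, with a median of 2171 UMIs and 1125 genes per cell and a range from 1000 to 66299 UMIs. The median depth was 1622 UMIs in replicate 1, 1852.5 in replicate 3, 3734 in replicate 4 and 3313 in replicate 5. Replicate 3 supplied 71.2% of the cells, and replicate 1 rests on 34193 UMIs, so its levels are the least precise. Of the 455 cells, 194 had 3 of the 7 gate genes, 126 had 4, 90 had 5, 41 had 6 and 4 had all 7. A further 64 cells with at least 3 of the genes were removed by the fibroblast genes, and none by the hair cell genes. With a UMI of at least 2 genes asked, 780 cells would have passed, and with at least 4, 261.

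Levels are given as UMIs of a gene per 1000000 UMIs (CPM), summed over the cells of a library. Because UMIs count molecules from their 3′ ends, CPM can be compared between genes without a correction for length. Ogn was the most widely detected gate gene, with a UMI in 87.5% of the cells, followed by Vcam1 (70.3%), Cpxm1 (63.1%), A2m (63.1%), Inmt (46.6%), Dmp1 (42.0%) and Fst (25.3%). As a measure of free RNA, 388 cells outside the gate with at least 3 of 6 macrophage markers, which should lack these stromal genes, were read in the same libraries. There a UMI of Ogn was seen in 5.67% of cells and one of Dmp1 in 0.515%, at a median depth of 2697 UMIs. Cells with 3 or more gate genes had been left out of the macrophages, so these shares may understate free RNA. Among the Dmp1 Ogn cells, 17 had at least 3 of the macrophage markers.

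Dmp1 stood at 907, 217, 35.6 and 128 CPM in replicates 1, 3, 4 and 5, and Ogn at 2369, 1324, 416 and 985 CPM. Fst stood at 907, 159, 24.4 and 68.6 CPM. All 3 were highest in replicate 1 and lowest in replicate 4, and Dmp1 differed by more than an order of magnitude between these libraries. Over the 4 libraries the levels were 322 ± 397 CPM (SD, n = 4) for Dmp1, 1273 ± 821 for Ogn, 290 ± 415 for Fst, 225 ± 125 for Inmt, 478 ± 148 for Vcam1, 222 ± 111 for Cpxm1 and 224 ± 57.1 for A2m. The other cochlear cells had 2.37 CPM of Dmp1, 66.4 of Ogn and 8.78 of Fst.

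The gate genes did not mark the same cells equally. Of the 191 cells with Dmp1, 90.1% had Ogn and 27.7% had Fst, and of the 115 cells with Fst, 46.1% had Dmp1 and 93.0% had Ogn. The 194 cells just inside the threshold, with exactly 3 genes, had Dmp1 in 23.2%, Fst in 19.6% and Ogn in 76.8% of cells. The 325 cells just outside, with 2 genes, had them in 9.23%, 4.92% and 59.4%, at a similar median depth of 2117 against 2269.5 UMIs. Coch, the gene of cochlin and no part of the gate, was found in 87.6% of the former and 70.8% of the latter.

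**Figure D2:**
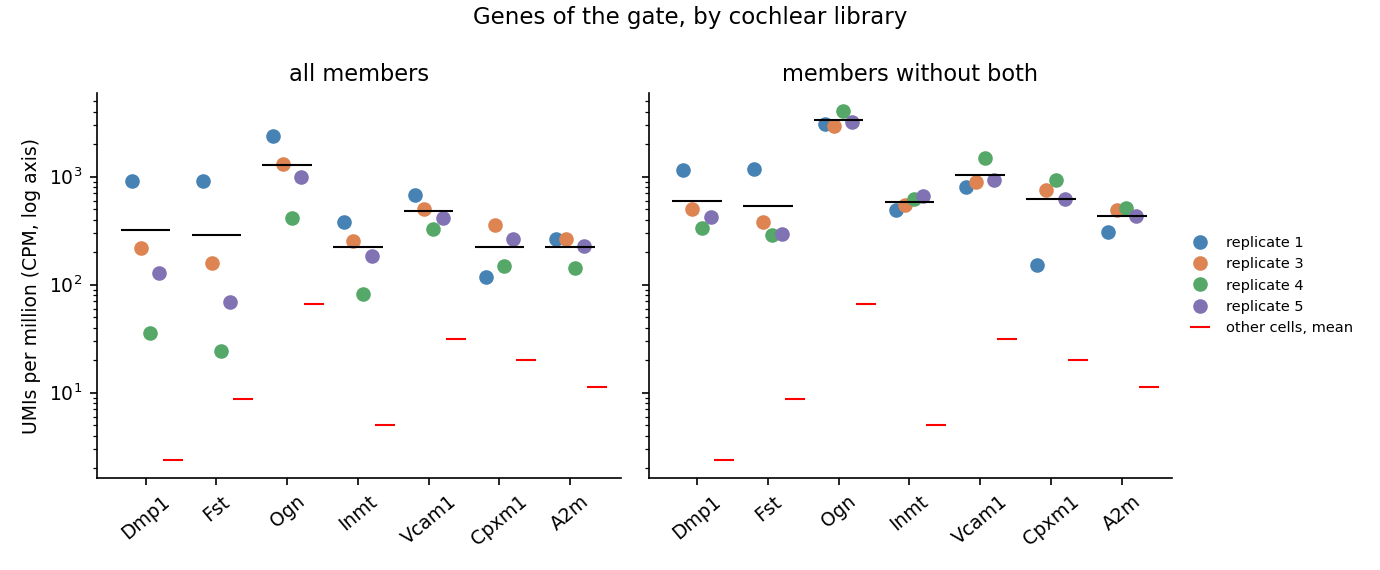
Level of the 7 gate genes (CPM, log axis) in each cochlear library, for all 455 members and for the 325 members that do not hold both Emilin2 and Otor, with the mean of the 4 libraries as a black line and the mean of the other cochlear cells in red. Ogn spans 416 to 2369 CPM in all members and 2916 to 4059 CPM in the 325.

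The Dmp1 Ogn cells included deep and shallow cells that differed in their genes. Of the 455, 130 had a UMI of both Emilin2, a glycoprotein of elastic matrix, and Otor, a small secreted protein of the cochlea also known as otoraplin. They made up 6.67% of the cells in replicate 1, 21.3% in replicate 3, 53.3% in replicate 4 and 50.7% in replicate 5. Their median depth was 9148 UMIs against 1728 in the other 325, so that 28.6% of the cells supplied 69.6% of the UMIs. Replicates 4 and 5, where they were most frequent, were also the libraries with low levels of Dmp1 and Fst.

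At equal depth most of these 130 cells would not have passed the gate. With each cell thinned at random to 1000 UMIs, 12 of the 130 (9.23%) and 234 of the 325 (72.0%) still had 3 gate genes, and 4 other cells newly did. In thinned cells, Dmp1 was found in 2.31% of the 130 and 37.5% of the 325, and Ogn in 25.4% and 83.4%. Unthinned, Dmp1 was found in 18.5% and 51.4%, and Fst in 3.85% and 33.8%. Cells with both Emilin2 and Otor were also 10.8% of the 6817 other cochlear cells. In the 325, Dmp1 stood at 1145, 498, 335 and 426 CPM in replicates 1, 3, 4 and 5, Ogn at 3091, 2916, 4059 and 3209 CPM, and Fst at 1183, 377, 290 and 293 CPM. The libraries lay closer together for Ogn in these cells, while replicate 1 remained highest for Dmp1 and Fst.

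**Figure D3:**
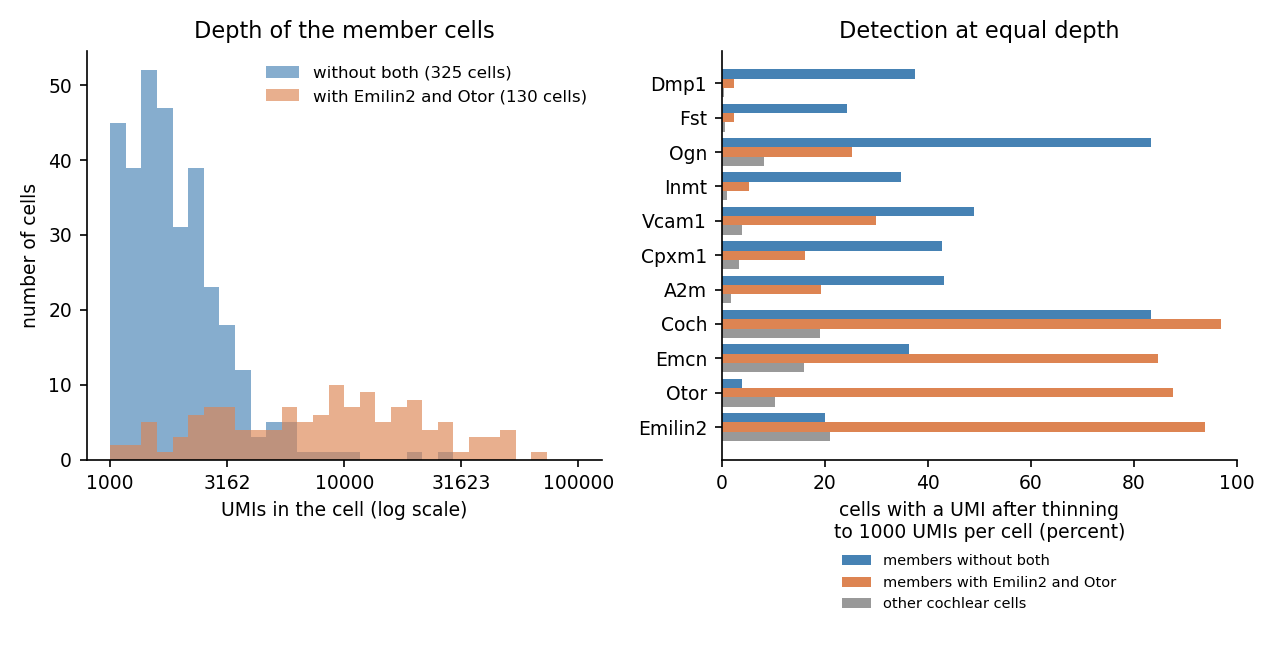
Left, number of members by UMIs per cell (log axis) for the 130 cells with Emilin2 and Otor and the 325 without both, with median depths of 9148 and 1728 UMIs. Right, percent of cells with a UMI of each gene after thinning to 1000 UMIs per cell, in both sets and in the other cochlear cells: Dmp1 is found in 2.31% of the 130 cells and in 37.5% of the 325.

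Beyond Emilin2 and Otor, which defined them, the 130 cells had on average over the libraries (of which replicate 1 held 1 such cell) 14989 CPM of Ptn, the gene of the growth factor pleiotrophin, against 1086 in the 325. Emcn, an endothelial sialomucin, stood at 3336 against 481 CPM. The 325 in turn had more Trf, the gene of transferrin (2140 against 122 CPM), Cemip, which takes part in breaking down hyaluronan (1149 against 8.17 CPM), and Coch (12451 against 6327 CPM). Spp1 and Sparcl1 were at like levels in both, with 5741 and 3915 CPM in the 130 against 6591 and 4963 CPM in the 325. Tympanic border cells lie under the basilar membrane. The 6 markers listed for them (Emilin2, Rarres1, Notum, Ednra, Tectb and Car13) summed to 8259, 4584, 5279 and 5040 CPM in the 130 and to 611, 336, 647 and 360 in the 325, but Tectb was at 0 in all Dmp1 Ogn cells and Emilin2 had chosen the 130. No cell type name is given to them. Because these cells carry most of the UMIs, many results below are given with and without them.

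The stromal label was then compared with marker genes. Pdgfra, a growth factor receptor of fibroblasts, was detected in 69.0% of the cells, and Col1a2, a chain of type I collagen, in 48.1%. Col1a1, the partner chain, had 9 UMIs, all in 1 cell, and Col3a1 was found in 8.13% of the cells. Of the 6 fibroblast genes listed (Pdgfra, Pi16, Dpt, Clec3b, Col14a1 and Cd34), Pdgfra gave 680 of a summed 684 CPM on average. Clec3b was at 0, and the median gene of this list had 0.975 CPM, against 3.54 in the other cells. The 6 general stromal genes listed (Col1a1, Col1a2, Col3a1, Dcn, Lum, Pdgfra) summed to 2252, 2583, 881 and 1416 CPM in replicates 1, 3, 4 and 5, against 488, 863, 519 and 989 CPM in the other cells, and were higher in each library. In the 325 cells they summed to 2748, 5624, 5397 and 3588 CPM, but in the 130 to 626, 527, 467 and 754, which was under the other cells in replicates 3, 4 and 5. Coch was found in 91.4% of the cells at 8249 ± 2267 CPM (SD, n = 4), and Pou3f4, a transcription factor of inner ear mesenchyme, in 57.4%. In macrophages, a UMI of Coch was seen in 16.2% of cells.

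Marker genes of bone and cartilage were present in part. The osteoblast genes Bglap and Bglap2 (osteocalcin) and the osteocyte genes Sost, Mepe, Fgf23 and Dkk1 were at 0, where 3 counts over all members would be 1.27 CPM. Phex, an endopeptidase that controls phosphate in osteocytes, was found in 14.3% of the cells, and Alpl, the tissue-nonspecific alkaline phosphatase, in 14.7%. The 6 osteoblast genes summed to 409, 54.9, 61.9 and 59.8 CPM, where the high value of replicate 1 came mostly from Ibsp UMIs of 1 cell, against 10.4, 24.7, 10.8 and 4.01 in the other cells. The 6 osteocyte genes summed to 322, 122, 46.9 and 102 CPM against 64.6, 35.8, 24.9 and 40.6, led by Pdpn (podoplanin). Of the 6 chondrocyte genes, Comp and Matn3 were at 0 and Sox9 was the most abundant at 252 CPM, and the sum was 585, 350, 231 and 319 CPM against 490, 156, 229 and 198. All 3 sums were higher than in the other cells of each library. Without the 130 cells they were 534, 71.7, 66.9 and 56.8 CPM for osteoblast, 420, 213, 245 and 246 for osteocyte and 687, 471, 312 and 578 for chondrocyte genes. In proportion, the osteocyte sum of replicate 4 moved most. Of the osteocyte list the cells thus had Phex and Pdpn, while its defining Sost, Mepe and Fgf23 were at 0.

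Genes of mural cells, the pericytes and muscle cells of vessels, were split. Abcc9 and Kcnj8, which encode the 2 parts of an ATP-sensitive potassium channel, were found in 47.5% and 22.6% of the cells, whereas Acta2, Myh11 and Notch3 were at 0 and Rgs5 was found in 1.32%. Of the endothelial list, Emcn carried most of the 1813, 2256, 2369 and 2483 CPM, and the sum was 801, 553, 357 and 644 CPM without the 130 cells. The other cells had 280, 411, 432 and 502 CPM of this list. The macrophage list summed to 0, 217, 214 and 164 CPM, against 445, 717, 150 and 209 in the other cells. The glial list summed to 263, 335, 163 and 137 CPM, the granulocyte list to 146, 3251, 0 and 2.2, the melanocyte list to at most 48.2, the epithelial list to at most 81.6 and the T cell list to at most 28.2. Of the granulocyte list the other cells had 4076, 3942, 953 and 3074 CPM. Genes of barrier fibroblasts, which line the meninges, summed to at most 83.8 CPM and those of mesothelium to at most 16.3, with 5 of its 6 genes at 0. In the 325 cells alone the macrophage list summed to 0, 261, 0 and 0 CPM, the glial list to 267, 500.04, 156 and 94.7, and the granulocyte list to 191, 8032, 0 and 9.47. The highest library there had 58.8 CPM of the melanocyte, 121 of the epithelial, 20.2 of the T cell, 182 of the barrier fibroblast and 27.6 of the mesothelium list. The granulocyte sum of the 325 cells lay above that of the other cells in replicate 3 and below it in replicates 1, 4 and 5.

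The erythroid list, led by hemoglobin, summed to 2223, 9736, 5945 and 13890 CPM in the Dmp1 Ogn cells and to 19208, 17218, 2890 and 13081 in the other cells, which were higher in replicates 1 and 3 and lower in replicates 4 and 5. In the 325 cells it summed to 2824, 15483, 22.3 and 59180 CPM, so that replicate 4 then lay under the other cells. In all, 70 of the 455 cells (15.4%) had a UMI of at least 3 of 6 markers of a blood, immune, endothelial, glial, melanocyte or epithelial list, most often of the endothelial list (22 cells) or the glial list (22 cells). Doublets were not removed. With such cells left out of both populations, 138 genes were higher and 212 lower against the Ccl11 Scn7a fibroblasts described below (177 and 215 with them), 434 and 502 against the Otos fibrocytes (305 and 415, and 399 and 520 without replicate 1, which this setting also dropped for having 3 fibrocytes), and 128 and 132 between the organs (182 and 163).

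Apart from mitochondrial and ribosomal protein genes, the most abundant transcripts were Malat1, a nuclear noncoding RNA, Apoe, which carries lipids (9536 ± 947 CPM, SD, n = 4), Ptn (9158), Gm42418 (8388), Coch, Apod, another lipid carrier (7331), Igfbp5 (6057), Spp1 (5447 ± 2203), Sparcl1 (4134 ± 969) and Fth1, a ferritin chain (4021). Without the 130 cells, Ptn was at 1086 CPM and the lowest of the others was Fth1 at 2803 CPM.

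For the gene groups that follow, a gene was counted where its level in the Dmp1 Ogn cells lay above that of the other cochlear cells of the same library in all 4 libraries. Of 22004 genes with a UMI, 9.71% were higher in this way and 23.6% were lower, and 7.19% were higher without the 130 cells. The cells were chosen by expression, and the genes of a group are not independent, so these counts describe the cells and carry no test. Genes of the gate that belong to a group were left out of its counts, and the numbers lower in all 4 libraries are given after the groups.

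Small leucine-rich proteoglycans, which bind collagen and growth factors, had 6 of 13 genes other than Ogn higher in all 4 libraries, with or without the 130 cells. Ogn, a gate gene, is itself of this family. Its neighbours on chromosome 13 lie in a row on the plus strand in mm10, with Ecm2 at 49504810 to 49532789, Aspn at 49544443 to 49567565, Omd at 49582462 to 49592822 and Ogn at 49608046 to 49624501. Of the cells, 19.6% had Omd (osteomodulin), 14.7% Ecm2 and 0.220% Aspn (asporin), so that the row was not detected evenly.

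Omd stood at 175, 74.2, 22.5 and 66.4 CPM in replicates 1, 3, 4 and 5, and at 229, 169, 201 and 256 CPM without the 130 cells. The other cochlear cells had 2.93 CPM. Every library of the Dmp1 Ogn cells was above that level. Prelp, which anchors basement membranes to connective tissue, stood at 526, 142, 84.4 and 111 CPM against 23.7 in the other cells. Bgn (biglycan) stood at 556, 197, 144 and 95.2 CPM against 24.6, and was likewise higher in all 4 libraries. Dcn (decorin) stood at 643, 1531, 330 and 531 CPM, and at 840, 3754, 3813 and 1922 without the 130 cells. Lum (lumican) stood at 58.5, 292, 37.5 and 104 CPM around the 172 CPM of the other cells, and so did not set all Dmp1 Ogn cells apart from these. Against the Ccl11 Scn7a fibroblasts described below, 7 genes of this group were tested. Lum was the 1 past the threshold as higher there and Dcn the 1 as lower.

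Genes of mineralized matrix gave a mixed picture, with 3 of 18 genes other than Dmp1 higher in all 4 libraries (4 without the 130 cells) and 7 at 0. Dmp1 lies on chromosome 5 in a cluster of acidic matrix protein genes, at 104202613 to 104214102 in mm10, before Ibsp (104299171 to 104311469), Mepe (104325329 to 104338611) and Spp1 (104435118 to 104441050). Spp1, the gene of osteopontin, which binds integrins and slows crystal growth, was found in 78.2% of the cells. Its neighbours were not: Ibsp (bone sialoprotein) had 12 UMIs in 2 cells, and Mepe had none.

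Spp1 stood at 8189, 4958, 2860 and 5783 CPM in replicates 1, 3, 4 and 5, above the 1053 ± 239 CPM (SD, n = 4) of the other cells in each library. When the 130 cells were left out it stood at 7442, 5208, 4929 and 8786 CPM, so its level did not rest on them. Spp1 was also seen in 45.9% of macrophages. In the Otos fibrocytes described below it had a mean of 1895 CPM. Against them it did not pass (1.24 higher on the log2 scale), and it passed without the 130 cells (1.75). Phex stood at 205, 48.9, 7.50 and 17.7 CPM, and at 267, 118, 89.2 and 75.7 CPM without the 130 cells, against 1.56 in the other cells. It was found in 0.769% of the 130 cells and in 19.7% of the 325.

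Of 47 glycoproteins of the matrix, 21 were higher in all 4 libraries and 17 without the 130 cells, and of 37 collagen chains 15 and 11. Sparcl1, a secreted relative of osteonectin, was found in 96.9% of the cells at 5586, 3605, 3709 and 3634 CPM, against 582 in the other cells. Efemp1, a fibulin, stood at 760, 892, 810 and 985 CPM against 200. The 4 libraries lay close together for Efemp1, while replicate 1 stood above the other 3 for Sparcl1. Lama2, a laminin chain of basement membranes, stood at 234, 204, 113 and 142 CPM against 18.4. Smoc1, a secreted calcium-binding protein that restrains bone morphogenetic proteins, stood at 146, 111, 41.3 and 93.0 CPM against 26.6. Of the collagen chains, Col8a1 was the most abundant, at 848, 248, 128 and 206 CPM. Col1a2 stood at 205, 234, 143 and 199 CPM, and Col1a1 was nearly absent.

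Among enzymes that process matrix and their inhibitors, 15 of 41 genes other than A2m and Cpxm1 were higher in all 4 libraries and 14 without the 130 cells. Lox, which crosslinks collagen and elastin, stood at 1375, 357, 148 and 447 CPM, against 67.3 in the other cells. Serpine2, an inhibitor of thrombin and plasmin, stood at 965, 830, 876 and 859 CPM, with little spread among the libraries, against 179 in the other cells. Cemip stood at 936, 398, 82.5 and 345 CPM, and at 1221, 954, 981 and 1439 CPM without the 130 cells. In the other cochlear cells it was at 22.0 CPM.

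Insulin-like growth factor genes formed a small group, in which 6 of 10 were higher in all 4 libraries and 7 without the 130 cells. Igfbp5, a binding protein held in the matrix, stood at 12927, 4075, 2427 and 4800 CPM, highest in replicate 1. Igfbp4, which blocks these factors, stood at 1726, 880, 529 and 602 CPM, and Igf1 itself at 1726, 311, 315 and 374. Igf2 stood at 205, 148, 122 and 111 CPM. In the other cells Igf1 was at 161 CPM and Igfbp4 at 121.

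Of 31 Wnt pathway genes, 17 were higher in all 4 libraries but 10 without the 130 cells. Wnt5a, a ligand that acts mainly outside the β-catenin route, was the most abundant, at 760, 342, 173 and 336 CPM, and at 954, 664, 1093 and 899 CPM without the 130 cells. The secreted inhibitor Notum, by contrast, was at 0 in all 4 libraries without them. Of 33 genes of the TGFβ and bone morphogenetic protein pathways other than Fst, 12 and 8 were higher. Tgfbi, an adhesive matrix protein induced by TGFβ, stood at 351, 355, 148 and 328 CPM against 44.8 in the other cells. Of antagonists other than follistatin, Nog (noggin) and Grem1 (gremlin) had 1 and 2 UMIs in all.

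Of 30 complement and chemokine genes, 8 were higher in all 4 libraries and 6 without the 130 cells. Cxcl12, the chemokine that holds blood-forming cells in the marrow, stood out with 3276, 568, 210 and 436 CPM, and with 4274, 1169, 1762 and 1231 CPM without the 130 cells. The other cochlear cells had 24.7 CPM and macrophages had a UMI in 3.61% of cells, against 72.3% of the Dmp1 Ogn cells. Serping1, the inhibitor of the first complement component, stood at 994, 592, 272 and 423 CPM.

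Of 24 adhesion genes other than Vcam1, 8 were higher in all 4 libraries and 9 without the 130 cells, and of 29 transport and junction genes 6 and 7. Itga8, an integrin chain, stood at 556, 370, 195 and 412 CPM, and Cdh11, a cadherin of mesenchyme, at 322, 234, 171 and 201 CPM. Abcc9 stood at 643, 309, 264 and 434 CPM against 23.4 in the other cells. The gap junction genes Gjb2 and Gjb6, which join cochlear fibrocytes, were low, at 175, 117, 7.50 and 148 CPM and at 0, 82.3, 7.50 and 90.7 CPM, under the mean of 638 and 366 CPM of the other cells.

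Of 65 transcription factors, 20 were higher in all 4 libraries and 16 without the 130 cells, and 10 were at 0. Ebf1, a factor of B cells and also of connective tissue, was found in 91.6% of the cells at 1141, 1771, 1378 and 2319 CPM. It gave nearly all of the level of the B cell list. Runx2, the master factor of osteoblasts, was found in 4.18% of the cells. Of 28 enzymes of small molecules other than Inmt 16 were higher and 11 without the 130 cells, of 14 retinoid genes 3 and 4, and of 29 genes tied to senescence 9 and 6. Cdkn1a (p21) was even across the libraries at 87.7, 88.3, 99.4 and 95.2 CPM, against 70.6 in the other cells. Of the other cell cycle inhibitors, Cdkn2a had 1 UMI and Cdkn2b none. Of 15 immediate early genes 1 was higher and none without the 130 cells, and Junb stood at 117, 253, 1718 and 363 CPM, far highest in replicate 4. Its mean in the 325 cells was 178 ± 172 CPM (SD, n = 4).

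Genes lower than in the other cells in all 4 libraries were found in most groups as well, beside 23.6% of all genes. They were 10 of the 29 transport and junction genes, 4 of the 14 retinoid and 2 of the 15 immediate early genes, more than were higher in each. There were 8 of the 31 Wnt genes, 7 of the 33 of the TGFβ and bone morphogenetic protein pathways, 6 of the 24 adhesion genes, 6 of the 30 complement and chemokine genes, 9 of the 41 matrix enzymes and inhibitors, 10 of the 65 transcription factors and 5 of the 29 senescence genes. Of the matrix groups, 6 of 47 glycoproteins, 4 of 37 collagen chains, 2 of 13 proteoglycans and 2 of 18 genes of mineralized matrix were lower, as were 3 of 28 enzymes of small molecules, and none of the 10 insulin-like growth factor genes was.

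The Dmp1 Ogn cells were set beside other stromal cells of the same libraries, the 432 Ccl11 Scn7a fibroblasts (at least 3 of the 6 fibroblast genes and fewer than 3 of the 7). As each population had been gated against the genes of the other, the differences are given as a description. With edgeR's quasi-likelihood test and each library as a block, 177 genes were past the threshold as higher and 215 as lower of 5207, or 3.4% and 4.13% (7.53% in all), and nothing is read from these counts. They were 44 and 39 without replicate 3, and were 88 and 58 of 1495 genes (5.89% and 3.88%, 9.77% in all) without the 130 cells.

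Spp1 was among the genes with more transcripts in the Dmp1 Ogn cells. It stood at 271, 211, 137 and 22.5 CPM in the fibroblasts, and the difference was 5.21 ± 0.42 on the log2 scale (SE, n = 4), or 5.57 ± 0.63 without the 130 cells. Piezo2, a mechanically gated channel, had 175, 73.4, 52.5 and 59.8 CPM in the Dmp1 Ogn cells and 1.20 CPM in 1 fibroblast library, with none in the other 3. Themis, best known from developing T cells, differed by 6.12 ± 0.58. Abcc9 differed by 3.92 ± 0.36, and by 4.47 ± 0.46 without the 130 cells. Rgs7bp, a partner of regulators of G protein signalling, stood at 1316, 432, 313 and 330 CPM and differed by 3.55 ± 0.37.

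Other genes depended on the 130 cells. Rarres1 differed by 4.03 ± 0.44 but had 0, 1.84, 0 and 0 CPM in the 325 cells. Emilin2, which had chosen the 130, was 1.23 higher on the log2 scale with them and 1.93 lower without them. On the fibroblast side, Dpp4, a surface peptidase of fibroblast progenitors, stood at 199, 237, 229 and 364 CPM against 0, 5.19, 0 and 2.21, and Aldh1a1, which makes retinoic acid, at 362, 375, 286 and 540 CPM against 0, 20.02, 11.3 and 15.5. The glutamate transporter Slc1a3 stood at 1231, 1310, 928 and 2190 CPM in the fibroblasts and at 263, 346, 326 and 385 in the Dmp1 Ogn cells. Dpp4, Aldh1a1 and Slc1a3 were lower in the Dmp1 Ogn cells of every library.

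The 103 Otos fibrocytes (at least 3 of Otos, Coch, Car3, Slc4a11 and Otor, with 5 or more UMIs of Otos) were set beside the Dmp1 Ogn cells in the same way. Of 2558 genes, 305 were past the threshold as higher (11.9%) and 415 as lower (16.2%), 28.1% in all, and again nothing is read from the counts. With library totals alone in place of TMM factors they were 665 and 274, with a median log2 difference of 0.40 over all genes against 0.03. The number higher was 197 without replicate 3, 160 without replicate 4 and 101 without replicate 5, when 204 were lower. With the 130 cells left out the numbers were 227 and 275 of 1344 (16.9% and 20.5%, 37.4% in all).

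Prelp, Lox, Cxcl12 and Abcc9 were among the genes higher on the side of the Dmp1 Ogn cells. Prelp differed by 4.39 ± 0.68 on the log2 scale (SE, n = 4), Lox by 4.26 ± 0.53 and Cxcl12 by 3.83 ± 0.50, and without the 130 cells by 5.61 ± 0.52, 4.72 ± 0.51 and 5.23 ± 0.36. Abcc9 differed by 4.37 ± 0.41. On the fibrocyte side stood Fxyd2, a subunit that tunes the sodium pump, with 2452, 1899, 2300 and 3283 CPM against 0, 174, 0 and 2.21, and S100b, a calcium-binding protein, with 1351, 3869, 5143 and 4418 CPM against 117, 245, 109 and 237. Ptgds, which makes prostaglandin D2, stood at 12425, 59650, 50272 and 81133 CPM against 87.7, 2487, 20.6 and 4302. Ptgds was also detected in 74.0% of macrophages, so low levels of it cannot be told apart from free RNA. Ptn was higher in the Dmp1 Ogn cells by 1.99 with the 130 cells and lower by 1.32 without them.

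**Figure D4:**
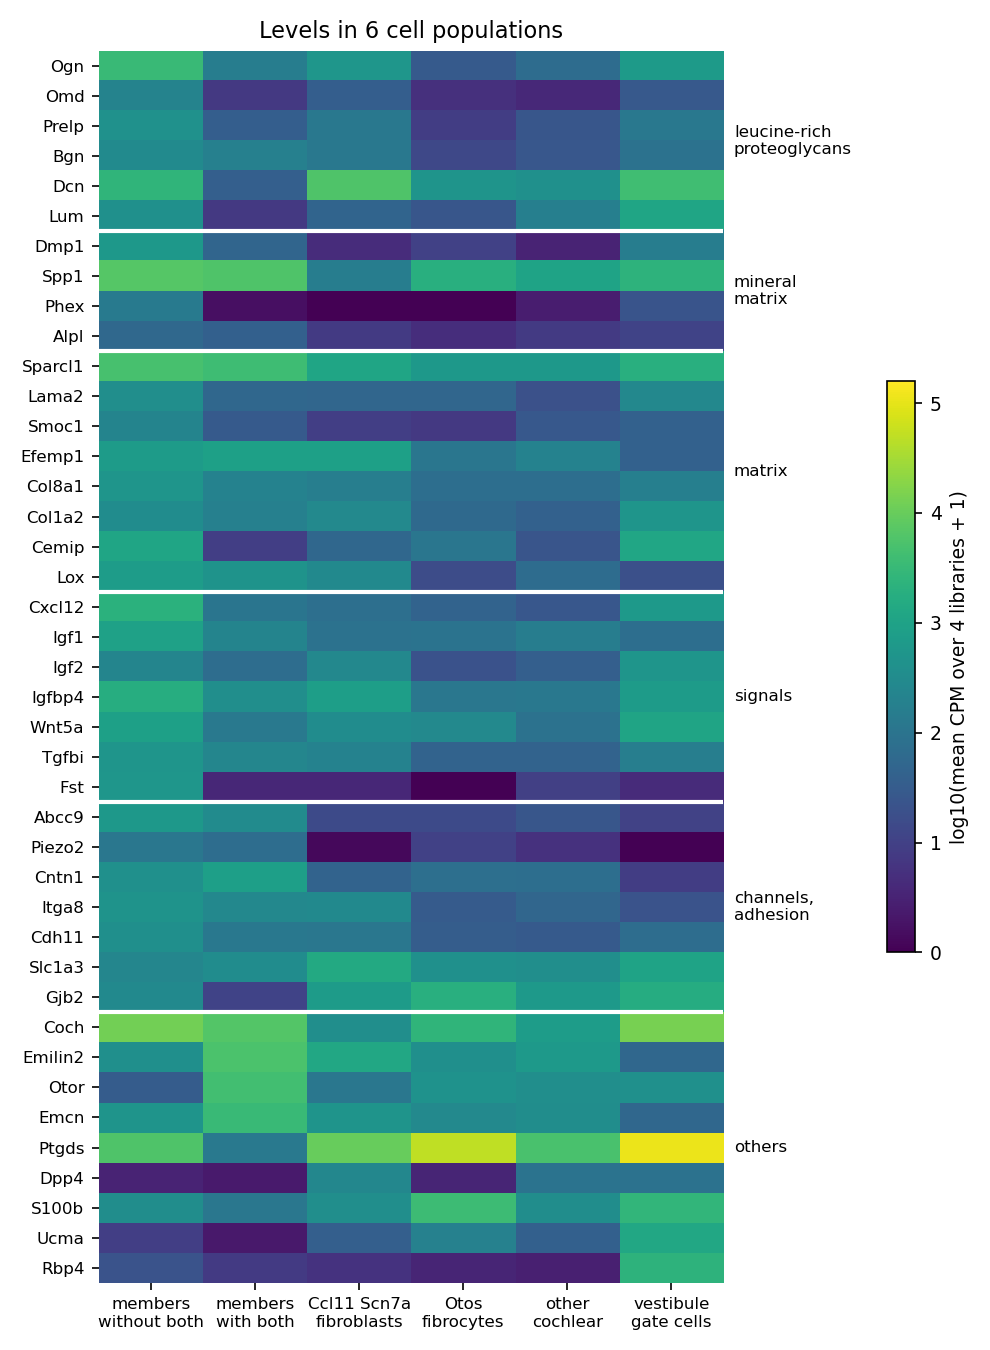
Mean level over 4 libraries, as log10 of CPM plus 1 (colour), of genes in rows grouped by role, in the 325 and the 130 members ("without both" and "with both" Emilin2 and Otor), the Ccl11 Scn7a fibroblasts, the Otos fibrocytes, the other cochlear cells and the vestibular cells that pass the gate (columns). Cxcl12, Cemip and Phex are higher in the 325 than in the 130 members, Ptgds is highest in the vestibular cells, and Piezo2 is at 0 there.

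The rule was set on cochlear libraries, and the same gate was put on the vestibular libraries to ask where else it finds cells. It took 8, 39, 30 and 17 cells in vestibular replicates 1, 3, 4 and 5, or 94 of 10424, with a median of 3106.5 UMIs. Their shares were 0.923%, 0.717%, 1.23% and 1.02%, and did not overlap with those of the cochlea. The share was 5.77% ± 2.16 in the cochlea and 0.971% ± 0.211 in the vestibule (SD, n = 4 each), a 5.94-fold difference of 4.80 percentage points. In the 325 cells alone the cochlear share was 3.56% and the fold 3.67. The fold moved with the gate, to 2.65 with 2 gate genes asked, 10.4 with 4 and 13.4 after thinning to 1000 UMIs. Since the gate had been set on the cochlea, these shares are a description without a test. None of the 94 vestibular cells had a UMI of both Emilin2 and Otor. For counting error alone this allows up to 3.19% of such cells, but the 94 were shallower than the 130 cells (a median of 3106.5 against 9148 UMIs), and detection of both genes depends on depth.

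The cells that the gate took in the vestibule differed from the cochlear ones also in genes that had chosen them. Dmp1 was detected in 24.5% of the 94 cells at 293, 104, 68.5 and 176 CPM, and Ogn in 83.0% at 554, 443, 466 and 1229 CPM, but Fst had 1 UMI in all of them. Themis likewise had 1 UMI and Piezo2 none, while Coch stood at 13655 CPM on average. The comparison of levels therefore sets cells of the same gate side by side, not cells shown to be of 1 type.

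Of 2448 genes tested with edgeR's quasi-likelihood test, 345 (14.1%) passed a Benjamini-Hochberg adjusted p of 0.05, with 182 higher (7.43%) and 163 lower (6.66%) in the cochlear cells. Without the 130 cells 67 were higher (5.08%) and 54 lower (4.1%) of 1318, or 9.18%, of which 47 and 47 were among the former. The gate genes were left out of the test. The 4 libraries of an organ are pools of mice, and the p-values measure the spread between them.

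Abcc9, Lox and Itga8 were among the genes higher in the cochlea. Abcc9 was found in cochlear gate cells at 643, 309, 264 and 434 CPM and in vestibular ones at 0, 12.3, 0 and 27.0, a log2 difference of 5.04 ± 0.57 (edgeR, adjusted p = 3.66e-06) that was 5.55 ± 0.55 without the 130 cells (adjusted p = 5.30e-06). Lox was at 0, 30.7, 0 and 40.5 CPM in the vestibule and was higher in the cochlea by 4.43 ± 0.76 (edgeR, adjusted p = 3.05e-04). Itga8 was at 0, 12.3, 27.4 and 40.5 CPM there and was higher in the cochlea by 3.81 ± 0.49 (edgeR, adjusted p = 1.27e-05). For these 3 genes every cochlear library lay above every vestibular one.

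Cntn1, a neural adhesion molecule, was higher by 5.44 ± 0.60 (edgeR, adjusted p = 2.77e-06) and Efemp1 by 4.30 ± 0.51 (adjusted p = 5.26e-06). Igf1 was higher by 2.99 ± 0.61 (edgeR, adjusted p = 1.65e-03), with 97.8, 43.0, 27.4 and 135 CPM in the vestibular libraries. Igf2 went the other way, with 554, 270, 500 and 702 CPM there and a log2 difference of -2.03 ± 0.33 (edgeR, adjusted p = 1.69e-04). Of the 7 tested genes of this group, Igf1 and Igfbp5 were higher and Igf2 and Igfbp7 lower in the cochlea, against 7.43% and 6.66% over all genes. Without the 130 cells Igf1, Igf2 and Igfbp7 passed in the same direction, Igfbp4 passed as higher by 1.15 ± 0.33 (edgeR, adjusted p = 0.0301) and Igfbp5 no longer passed (adjusted p = 0.0645).

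Emilin2 and Emcn, which the 130 cells carried, were higher in the cochlea by 5.89 ± 0.72 and 5.51 ± 0.51 on the log2 scale with them (edgeR, adjusted p = 7.99e-06 and 4.90e-07). Without them Emcn was higher by 3.43 ± 0.47 (edgeR, adjusted p = 1.04e-04) and Emilin2 by 2.72 ± 0.64. Emilin2 had chosen the cells left out, so its value without them is shaped by the filter and nothing is read from it. Syt1, a calcium sensor of vesicle release, and Aox3, an aldehyde oxidase, were at 0 in all 4 vestibular libraries. Against the 3 counts that a 0 allows over all vestibular cells, they were at least 17.2-fold and at least 19.97-fold higher in the cochlea. These bounds include the 130 cells. Without them, none of the 8 tested enzymes of small molecules, the group that holds Aox3, was higher, beside 5.08% of all tested genes.

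Of the genes lower in the cochlear cells, Ucma, a secreted protein of cartilage, stood at 978, 1248, 2351 and 581 CPM in the vestibule and at 0, 4.45, 0 and 6.64 in the cochlea, a difference of -8.50 ± 0.67 (edgeR, adjusted p = 4.61e-08). Rbp4, the carrier of retinol, stood at 1434, 2643, 3578 and 1728 CPM in the vestibule and differed by -7.59 ± 0.55 (edgeR, adjusted p = 1.89e-08). Ptgds reached 79179, 131719, 180394 and 63793 CPM in the vestibule and differed by -6.20 ± 1.21 (edgeR, adjusted p = 1.05e-03). All 3 also passed without the 130 cells. Cells that meet the rule for Otos fibrocytes were 11.1% of the kept vestibular cells and 1.42% of the cochlear ones. Whether their free RNA adds to the difference in Ptgds, or in Gjb2 below, was not tested.

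Of 13 tested transport and junction genes, 8 were lower and 1 (Abcc9) was higher in the cochlea, where 6.66% and 7.43% of all tested genes were, with a median log2 difference of -2.08 where the median of all tested genes was 0.00. Without the 130 cells 7 of 11 were lower, against 4.1% of all. Gjb2 stood at 2607, 1856, 1145 and 891 CPM in the vestibule and differed by -4.15 ± 0.62 (edgeR, adjusted p = 7.57e-05), and by -2.51 ± 0.47 without the 130 cells. Slc13a4, a sulfate transporter, differed by -5.05 ± 0.35 (edgeR, adjusted p = 1.22e-08). Slc1a3 differed by -1.74 ± 0.34 (edgeR, adjusted p = 1.11e-03). Gjb6, Slc22a2, Slc13a3 and Slc7a11 were also lower.

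The proteoglycans depended on the 130 cells. With them, Dcn and Lum of 4 tested genes were lower in the cochlea and none higher, where 6.66% and 7.43% of all tested genes were. Without them 5 were tested, beside 4.1% lower and 5.08% higher over all genes. Dcn no longer passed, Lum was lower by -1.47 ± 0.39 (edgeR, adjusted p = 0.0223), and Omd and Prelp were higher by 2.42 ± 0.43 (adjusted p = 9.48e-04) and 1.44 ± 0.35 (adjusted p = 0.0127). Cxcl12, Tgfbi, Smoc1 and Serping1 also passed only without the 130 cells, with 1.56 ± 0.39, 1.62 ± 0.32, 2.50 ± 0.40 and 1.34 ± 0.33 (edgeR, adjusted p = 0.0154, 2.27e-03, 3.67e-04 and 0.0131).

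Ptn and Trf also moved with these cells. Ptn differed by 1.13 ± 0.44 with them (edgeR, adjusted p = 0.109) and was lower in the cochlea by -1.92 ± 0.50 without them (adjusted p = 0.0193). Trf was lower by -2.75 ± 0.53 with them (edgeR, adjusted p = 9.83e-04) and did not pass without them (-1.38 ± 0.45, adjusted p = 0.0655).

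For several groups fewer genes had enough counts to be tested without the 130 cells. The counts of these groups stand beside 7.43% higher and 6.66% lower over all tested genes, or 5.08% and 4.1% without these cells. Of 6 tested immediate early genes 4 were higher in the cochlea (Jun, Junb, Egr1 and Dusp1), and without these cells 1 gene could be tested and did not pass. Of 11 TGFβ and bone morphogenetic protein genes 6 were higher (Fstl1, Bmp4, Id1, Id2, Id3 and Smad7) and 2 lower (Nbl1 and Tgfb2), and of 5 without them 2 were higher and 2 lower. Of 11 Wnt genes 5 were higher (Notum, Lef1, Apcdd1, Fzd1 and Fzd7) and 2 lower (Sfrp4 and Wnt5a). Of the 3 Wnt genes tested without them, Sfrp4, a secreted Wnt inhibitor, was lower by -1.53 ± 0.37 (edgeR, adjusted p = 0.0123). Of 21 transcription factors, Tbx1, Eya4, Nr2f1, Nr2f2 and Ebf2 were higher and none was lower, and 1 of 17 was higher without these cells. Tbx1, Eya4 and Ebf2 were then not among the 17, Nr2f1 passed (2.14 ± 0.53, edgeR adjusted p = 0.0140) and Nr2f2 did not (1.21 ± 0.39, adjusted p = 0.0645). Of 9 collagen chains, Col4a4 and Col23a1 were higher and Col1a2, Col9a2, Col9a3 and Col11a2 lower. Without these cells Col4a4 and Col23a1 could not be tested, and of 5 chains 2 were lower and none higher.

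**Figure D5:**
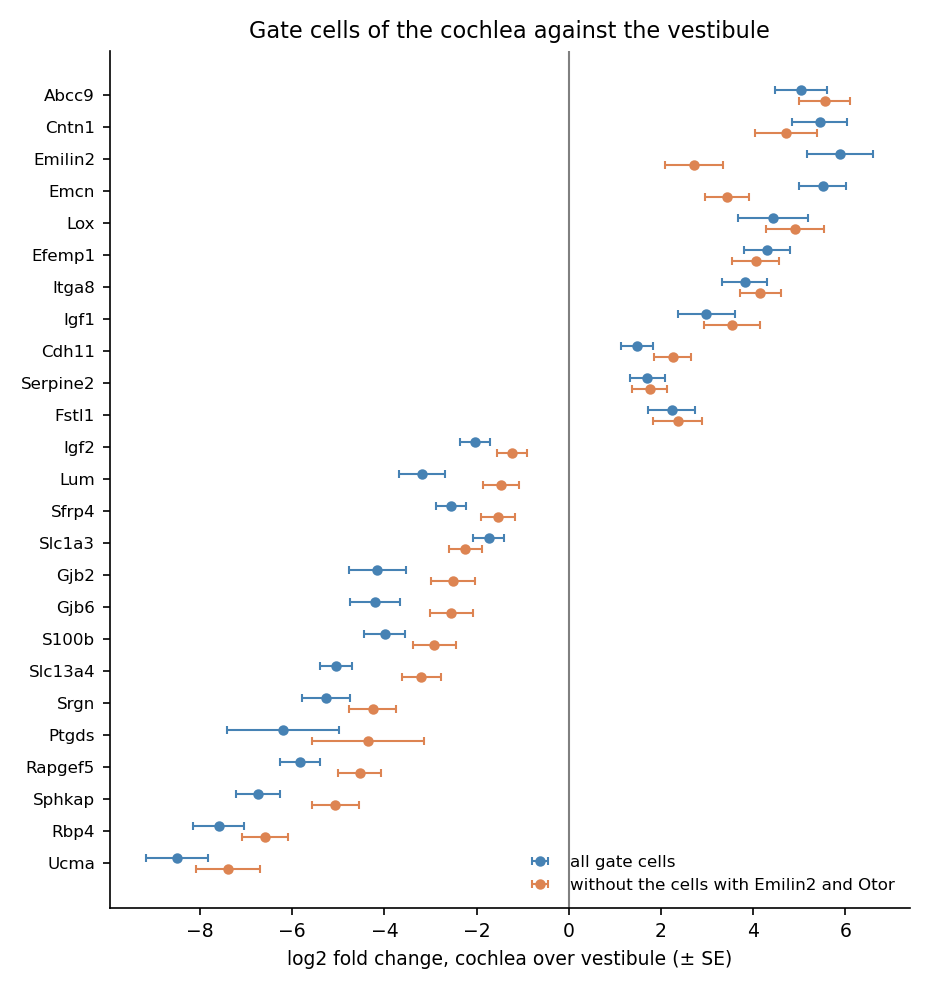
Log2 fold change of the level in cochlear over vestibular gate cells with its SE (horizontal axis), for genes in rows chosen after their values were seen, in all gate cells and without the cells with Emilin2 and Otor. All 25 keep their direction, with differences from 5.89 for Emilin2 to -8.50 for Ucma. Emilin2, which had chosen the cells left out, drops to 2.72 without them.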

How the data were processed

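Single-cell 3′ libraries (10x Chromium v3.1) of sensory epithelia from microdissected cochleae and vestibular organs were used. The authors aligned reads to mouse build mm10 and counted UMIs with Cell Ranger, and the deposited values are raw UMI counts per gene and cell without normalization. Per the file headers, replicates 1 and 2 were counted with version 5.0.1 and the others with 6.1.2, and the submitters' processing notes name 6.1.2 and Seurat. Limits the authors set on ribosomal and blood genes are not given in the sources used here and were not applied. Doublets were not removed and no caller was run.

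Counts of all 32285 genes were read, cells were filtered and gated as described, and UMIs were summed per library and population. The members, the gene lists and the tests were chosen with earlier results of these data known. Sums were compared with edgeR 4.0.16 (R 4.3.3) by its quasi-likelihood test with TMM factors, filterByExpr and Benjamini-Hochberg adjustment at 0.05. The library was a block where 2 populations of the same cochlear libraries were compared, since such sums come from the same droplets, and no block was used between organs. A library entered with at least 5 cells of each population. The 26 genes of all gates were left out of the tables of results. Shares of cells, with exact binomial intervals (scipy 1.17.1), are given without a test, since the gate had been set on the cochlear libraries. DESeq2 1.42.0 was an alternative. Counts were also simulated with log2 changes of 2, the same spread for every gene, and no library effect or mix of deep and shallow cells. There, 85.7% of 133 changed genes were recovered for the fibroblast comparison (5054 genes), 87.7% of 106 for the fibrocyte comparison (2620 genes) and 87.5% of 96 for the organ comparison (2348 genes). Of the calls, 0.87%, 5.1% and 7.69% fell on unchanged genes. These rates hold for the simulated setting and were not measured at the spread of the real libraries.

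Genes were named by a rule: the gate genes, the 10 most abundant genes, in each comparison up to 10 genes each way that passed in the same direction in every library with at least 50 CPM on the higher side, and for each gene list its most abundant members, those that passed and those at 0. Other genes named in the text and those plotted were chosen after their values were seen. Leaving out the cells with Emilin2 and Otor, leaving out cells with markers of another type, and thinning in the organ comparison were alternatives added after seeing the data. A few values are not reported here.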

Additional observations from a re-analysis of the deposited data

Results flagged for a closer look

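In 206 sets of 4 libraries, 34 values (16.5%) stood farther from the other 3 than Dixon's 95% critical value allows, where chance gives about 1 in 20. Of these, 15 lay in cochlear replicate 1, whose members are 15 cells, 6 in cochlear replicate 3, 3 in replicate 4 and 1 in replicate 5, and 1, 3, 1 and 4 in vestibular replicates 1, 3, 4 and 5.

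Among all Dmp1 Ogn cells, replicate 1 stood apart as high for Fst (907 CPM), Prelp (526), Sparcl1 (5586), Col8a1 (848), Igf1 (1726), Cxcl12 (3276), Piezo2 (175) and Rgs7bp (1316), and as low for Otor (1287). Replicate 4 was apart as high for Junb (1718 CPM) and low for Tgfbi (148). Replicate 3 was apart as high for Fxyd2 (174 CPM) and Sphkap (2.97).

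With the cells that hold Emilin2 and Otor left out, replicate 1 stood apart as high for Fst (1183 CPM), Lox (1488), Igf1 (2252), Pdgfra (1641) and Gadd45g (572), and as low for Tgfbi (343). Replicate 3 was apart as high for Fxyd2 (428 CPM), Dpp4 (9.19), Sphkap (7.35) and Rapgef5 (14.7), replicate 4 as low for Efemp1 (535), and replicate 5 as high for Ucma (28.4). Fst and Igf1 were thus apart in replicate 1 with and without these cells.

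In the vestibular cells that pass the gate, replicate 5 stood apart as high for Ogn (1229 CPM), Bgn (324), Phex (81.0) and Fst (13.5, which is 1 UMI). Replicate 1 was apart as high for Ebf1 (1825 CPM), replicate 4 for S100b (4010), and replicate 3 for Cntn1 (30.7), Themis (6.15) and Gadd45g (6.15), the latter 2 with 1 UMI each.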

How the results depend on the processing

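The number of Dmp1 Ogn cells depended on the gate. With at least 2 gate genes it was 780 (mean share 9.46%), with at least 4 it was 261 (3.12%), among cells of 2000 or more UMIs 242, and after thinning to 1000 UMIs 250 (2.70%). Leaving out the cells with Emilin2 and Otor gave a mean share of 3.56%. Leaving out 1 cochlear library gave 131 (without replicate 3) to 440 cells. The difference in share between organs ranged from 4.19 to 5.85 percentage points when a library was left out, and was 5.89 with at least 2 gate genes, 2.82 with at least 4, 2.50 after thinning and 2.59 without the cells with Emilin2 and Otor.

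Against the Ccl11 Scn7a fibroblasts (177 higher, 215 lower), DESeq2 gave 130 lower, no filter on low counts 389 and 397, thinned cells 67 and 96, and leaving out the cells with Emilin2 and Otor 88 and 58. Leaving out 1 library gave 44 to 241 higher and 39 to 251 lower, both lowest without replicate 3. Against the Otos fibrocytes (305 and 415), library totals alone gave 665 and 274, with the median difference of all genes at 0.40 on the log2 scale against 0.03. No filter gave 581 higher, thinned cells 65 and 85, a marker minimum of 4, which also dropped replicate 1 (2 fibrocytes left), gave 158 and 250, a mitochondrial limit of 10% gave 79 and 179, and leaving out the cells with Emilin2 and Otor 275 lower. Leaving out 1 library gave 101 to 399 higher and 204 to 520 lower. Between organs (182 and 163), no filter gave 409 and 347, thinned cells 23 and 28, and leaving out the cells with Emilin2 and Otor 67 and 54. These last 2 settings also left fewer counts to test.

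Genes that had passed in the main test were refitted under each alternative. They were those named by rule, others chosen for this report after their values were seen, and those whose call had reversed. Of the refits, 588 of 613 against the fibroblasts, 667 of 698 against the fibrocytes and 628 of 647 between organs kept their direction and their side of the threshold. Genes with too few counts for a refit are not among these. Without the cells with Emilin2 and Otor, 24 of 43 genes could be refitted against the fibroblasts and 19 stayed the same, against the fibrocytes 39 of 47 and 34, and between organs 32 of 46 and 27. Of the 177 genes higher against the fibroblasts 72 could still be tested and 44 were still called. Without cells with markers of another type, Emilin2 against the fibroblasts (0.51 on the log2 scale, edgeR adjusted p = 0.49) and Cemip and Igfbp5 between organs (-1.16 and 1.43, adjusted p = 0.0868 and 0.0671) no longer passed. Log2 differences that turned negative against the fibroblasts were Emilin2 (-0.17 with thinned cells, -1.93 without the cells with Emilin2 and Otor) and, without those cells, Emcn (-0.064) and Junb (-0.11). Against the fibrocytes they were Cav1 (-0.89), Emilin2 (-0.34) and Ptn (-1.32), all without those cells. Between organs no gene refitted in this way reversed, while Ptn, which had not passed (1.13), was lower (-1.92) without those cells. For Emilin2 the setting removes cells chosen by it, and for the others the cause was not tested.

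Without the library block, 133 and 170 genes passed against the fibroblasts and 226 and 344 against the fibrocytes. The sources used here do not say whether cochlear and vestibular samples of the same number came from the same mice. The correlation of same-numbered deviations was 0.20, 0.094, 0.272 and 0.057, and replicates 3 and 5 did not correlate best with their own number, so no block was used. With a replicate block the organ comparison gave 266 higher and 177 lower. Among the cochlear libraries depth limits replicate 1 most, with 15 members, and it also limits the vestibule, with 8 to 39 gate cells a library.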

Other observations

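Several secreted proteins and binding proteins were abundant in the Dmp1 Ogn cells without setting all of them apart. Igfbp2 stood at 1228, 894, 1076 and 921 CPM, against a mean of 287 in the other cells. Clu (clusterin), an extracellular chaperone, stood at 1356 ± 98.4 CPM (SD, n = 4) and the other cells at 1339 ± 143, so that its level did not set the cells apart. Timp3, an inhibitor of matrix metalloproteinases, stood at 3948, 917, 836 and 631 CPM, and replicate 1 was far above the other 3 also without the cells that hold Emilin2 and Otor, at 4084 CPM. Kcnj8, the channel partner of Abcc9, had a mean of 131 CPM against 7.95 in the other cells, and was found in 10.2% of the cells that do not hold both Emilin2 and Otor.

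Of the gate's hair cell genes, Myo6 was the most abundant in the Dmp1 Ogn cells at 314 CPM on average, while Tmc1, Kncn and Gfi1 were at 0. Myo6 is also transcribed outside hair cells, and no cochlear cell was removed by the hair cell set.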
